A study of Mus musculus with 6 samples.

Results

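The genes of the auxiliary subunits of voltage-gated calcium channels were followed in mouse cortical neurons that received N40K or a control vector. They were taken by gene symbol from a deposited table of splicing scores: the beta subunit genes Cacnb1, Cacnb2, Cacnb3 and Cacnb4, and the alpha2delta subunit genes Cacna2d1, Cacna2d2 and Cacna2d3. All 7 were found, of 15705 genes in the table. The filter on low values removed 0 genes, so it did not select among the members. A stricter filter, which drops the lowest 25% of genes by mean score, kept 2 of the 7. Neurons came from C57BL/6 embryos at embryonic day 18 and were exposed at day 7 of culture, for 3 days, to lentivirus made from the vector FCK1.3GW. The 3 control libraries received the vector with a short CaMKII promoter and EGFP, and the 3 N40K libraries received FCK1.3GW-N40K, for which the labels list the same promoter with N40K. Both viruses carried the WPRE element and long terminal repeats. N40K is an N-terminal fragment of the U1 snRNP protein encoded by Snrnp70, and the study asked how disturbed U1 snRNP splicing affects neuronal excitability. The CaMKII promoter is used for excitatory neurons, so each library also holds RNA of cells in which it is weak. Whether the replicates were separate cultures is not stated in the labels, so the p-values below measure the spread between these libraries, which may be technical.

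Voltage-gated calcium channels are built around a pore-forming alpha1 subunit. A cytoplasmic beta subunit binds the pore subunit, helps bring it to the surface and shapes its opening and inactivation. An alpha2delta subunit, anchored on the outer face of the membrane, raises the number of channels at the surface and at release sites. In neurons these channels couple electrical activity to transmitter release and to gene expression. The U1 snRNP recognises the start of an intron, where U1 RNA pairs with the last bases of the exon and the first bases of the intron.

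The score, named Sd in the table and read here as splicing deficiency, was deposited once per gene and library, as a ratio with 4 decimals. Its formula is unknown here. In this field a higher score of this kind stands for more unspliced relative to spliced RNA, and it cannot tell more of the one from less of the other. Whether the score takes gene length into account is unknown, so levels are compared between groups of libraries for 1 gene, not between genes. The depth behind the scores is unknown.

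The exon side of the U1 pairing site was read from the principal annotated transcript of each gene (GENCODE release M21, mouse build GRCm38). The sequences below show the 15 exon bases just before the longest intron of the coding region, since this intron holds the most intronic sequence a U1-dependent step must remove. They run 5′ to 3′, and the capitals mark the last 3 bases of the exon.
Cacnb1: ctcgagaaagccAAG
Cacnb2: ttggaaaaagcaAAG
Cacnb3: gaggactcggagGCG
Cacnb4: ttcatcctcagaCAG
Cacna2d1: tctaaggccctgGTG
Cacna2d2: cagcagctccgaGAG
Cacna2d3: cagcttctgcaaAAG
At these introns 5 of the 7 exons ended in AG, the bases most common at this place, and those of Cacnb3 and Cacna2d1 did not. The introns measured 3.79 kb in Cacnb1, 83.9 kb in Cacnb2, 4.27 kb in Cacnb3, 197.9 kb in Cacnb4, 137.1 kb in Cacna2d1, 39.4 kb in Cacna2d2 and 186.3 kb in Cacna2d3. The Cacnb2 transcript holds 160 kb of introns, while the gene spans 384.8 kb, and its other transcripts were not read. Over all coding introns of the transcript read, 76.9% of the 13 exon ends of Cacnb4 were AG and 75% of 12 in Cacnb3. For Cacnb1 it was 69.2% of 13 and for Cacnb2 58.3% of 12. The share was 51.4% of 37 in Cacna2d3, 47.4% of 38 in Cacna2d2 and 35.1% of 37 in Cacna2d1. Over the 147132 coding exon ends of the genes in the table it was 56%. The beta subunit genes thus lay above this share, Cacnb2 only slightly with 7 of 12, and the alpha2delta subunit genes below it. This is a description of the sequences and not a test.

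The scores of 2 beta subunit genes, Cacnb4 and Cacnb2, rose in N40K neurons, and none of the 7 genes fell. The threshold was a limma Benjamini-Hochberg adjusted p under 0.05 on log2(score + 0.01), adjusted over all genes. By this rule 21.5% of all genes rose and 4.11% fell, so 2 of 7 is near the share over the whole table. At an unadjusted p under 0.05 by limma, the only tool run, 3 members were higher and 0 lower, beside 31.2% and 7.32% of all genes. The median ratio of mean scores was 1.22 over the 7 members and 1.11 over all genes. The median log2 change was 0.02 over the members and 0.06 over all genes; the order of the 2 medians is the opposite on this scale, on which low scores move little.

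Cacnb4 encodes the beta4 subunit, abundant in brain and affected in the epileptic lethargic mouse. Its score was 0.0023, 0.0022 and 0.0021 in the control libraries and 0.0047, 0.0057 and 0.0047 in the N40K libraries. Each N40K library thus lay above every control library, with a wide gap. The mean went from 0.0022 ± 0.0001 to 0.00503 ± 0.000577 (SD, n = 3), a ratio of 2.29. The log2 change was 0.30 ± 0.03 (SE) with the pseudocount (limma adjusted p = 0.00342) and 1.19 ± 0.11 without one (limma adjusted p = 0.00249). The call held under every alternative that kept the gene, with limma adjusted p from 0.00242 to 0.031. These included all 6 fits with 1 library left out. All Cacnb4 scores lay below the pseudocount of 0.01. The gene was removed by the stricter filter, which drops the lowest 25% of genes by mean score, and by the fit without overlapping genes.

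Cacnb2 encodes the beta2 subunit, the main beta subunit of cardiac L-type channels and also present in brain. Its score was 0.0022 in all 3 control libraries and 0.0032, 0.004 and 0.0047 in the N40K libraries. The N40K libraries again lay above the controls, and they were spread more widely than those of Cacnb4. The mean N40K score was 0.00397 ± 0.000751 (SD, n = 3), a ratio of 1.8, and the log2 change was 0.19 ± 0.04 (limma adjusted p = 0.0193). The control spread of 0 reflects equal scores to the last decimal. Cacnb2 no longer passed without control 1 (limma adjusted p = 0.061), control 2 (0.065), control 3 (0.0669) or N40K 2 (0.0612), or under median centring of the libraries (0.127). Without any one control its log2 change stayed at 0.19, with an SE of 0.05. In these fits 12.9%, 10.3% and 10.4% of all genes rose, beside 21.5% with all libraries. All Cacnb2 scores lay below the pseudocount of 0.01, and the stricter filter and the fit without overlapping genes removed this gene too.

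Cacnb3 and Cacnb1 did not pass. Cacnb3 encodes the beta3 subunit, often paired with N-type channels in neurons. Its score was 0.0143, 0.0131 and 0.0142 in the control libraries and 0.0123, 0.0125 and 0.0122 in the N40K libraries. Every N40K library lay under every control library, with means of 0.0139 ± 0.000666 and 0.0123 ± 0.000153 (SD, n = 3), a ratio of 0.889 (limma adjusted p = 0.187). Cacnb1 encodes the beta1 subunit, best known from skeletal muscle channels and also present in brain. Its score was 0.0095, 0.0086 and 0.0096 in control and 0.0097, 0.01 and 0.0102 in N40K libraries. The groups were separated by the last decimal, with a ratio of 1.08 (limma adjusted p = 0.379).

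**Figure D1:**
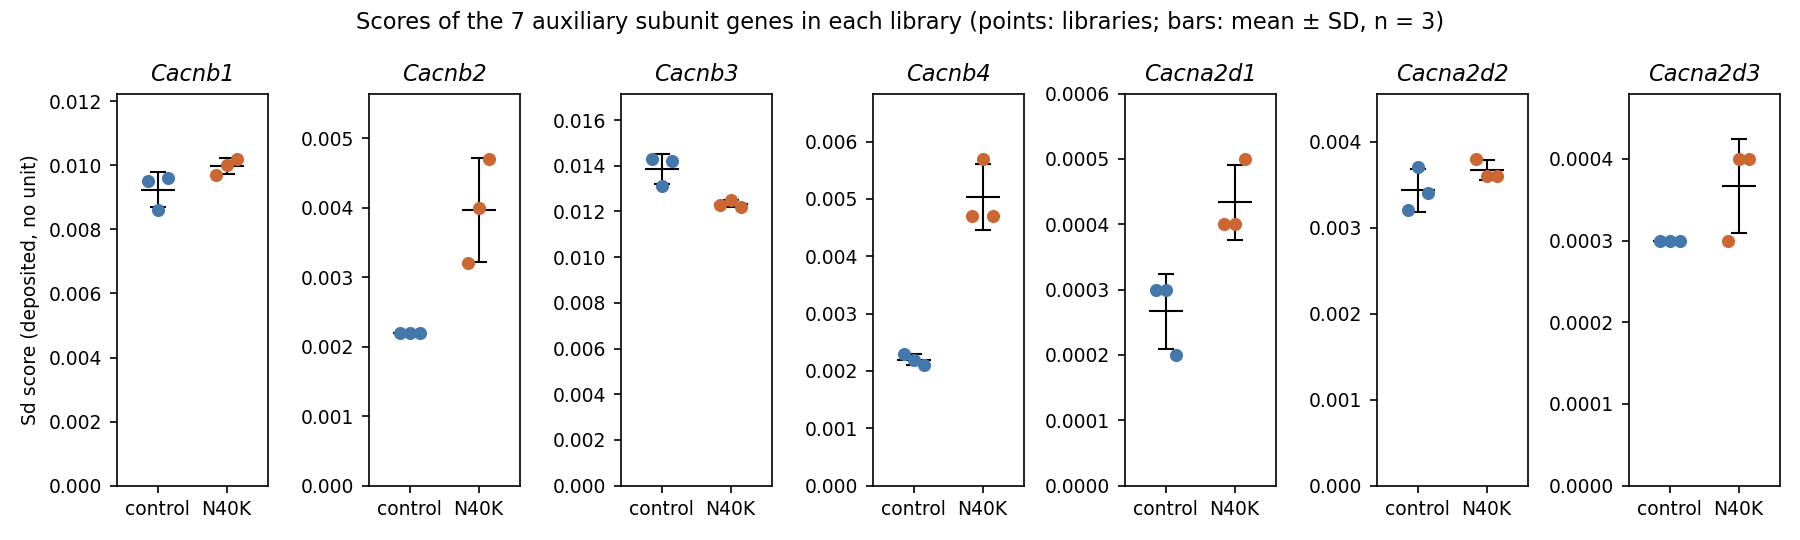
Deposited Sd score (vertical axis, no unit, from 0, scaled for each gene) of each auxiliary subunit gene in the 3 control and 3 N40K libraries. Points are libraries and bars are the mean ± SD (n = 3); the N40K points of Cacnb4 (0.0047 to 0.0057) and Cacnb2 (0.0032 to 0.0047) lie well above the control points.

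The 3 alpha2delta subunit genes did not pass the test at the pseudocount of 0.01, where by limma 1 of them was higher and 0 lower at an unadjusted p under 0.05 (31.2% and 7.32% of all genes). Cacna2d1 encodes alpha2delta-1, the binding site of gabapentin and a receptor for thrombospondins. Its score was 0.0003, 0.0003 and 0.0002 in control and 0.0004, 0.0004 and 0.0005 in N40K libraries. The groups do not overlap, but neighbouring libraries are 1 unit of the last decimal apart. The ratio of means was 1.63, and rounding of the deposited scores alone allows 1.21 to 2.23. Its log2 change was 0.02 ± 0.01 at the pseudocount of 0.01 (limma adjusted p = 0.0998). It passed as a rise at a pseudocount of 0.001 (0.18, limma adjusted p = 0.0468) and without a pseudocount (0.72 ± 0.19, limma adjusted p = 0.0433), where 22.4% of all genes rose. Without a pseudocount 3 of the 7 members rose and 0 fell by limma, beside 4.13% of all genes that fell.

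Cacna2d3 encodes alpha2delta-3, studied in synapse formation and pain. Its score was 0.0003 in all control libraries and 0.0003, 0.0004 and 0.0004 in the N40K libraries, so the groups touch. The ratio was 1.22 (limma adjusted p = 0.426), and rounding alone allows 0.905 to 1.67, which includes no difference. Cacna2d2 encodes alpha2delta-2, abundant in Purkinje cells and affected in the ducky mouse. Its score was 0.0032, 0.0037 and 0.0034 in control and 0.0038, 0.0036 and 0.0036 in N40K libraries. The groups overlapped, with means of 0.00343 ± 0.000252 and 0.00367 ± 0.000115 (SD, n = 3) and a ratio of 1.07 (limma adjusted p = 0.429).

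Without any overlap, the N40K libraries were higher for 4 of the 7 members (Cacnb1, Cacnb2, Cacnb4 and Cacna2d1), against 33.6% of all genes. They were lower for 1, Cacnb3, against 8.67% of all genes. Cacna2d2 and Cacna2d3 overlapped.

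The beta subunit genes were also set against each other within each library, where a factor that multiplies every score of a library alike cancels. A difference that goes with gene span does not cancel: the median ratio of mean scores was 1.05 over all genes of 10.9 to 25.5 kb, where Cacnb1 and Cacnb3 lie, and 1.37 over genes of 61.9 kb or more, where Cacnb2 and Cacnb4 lie. Its part in the pair ratios was not tested. This comparison was chosen after the scores were seen. The Cacnb3 score was 6.22, 5.95 and 6.76 times the Cacnb4 score in the control libraries and 2.62, 2.19 and 2.6 times in the N40K libraries. The 2 groups of ratios were far apart, a log2 difference of -1.36. The ratio of Cacnb2 to Cacnb3 went from 0.159 ± 0.00784 to 0.322 ± 0.0626, and that of Cacnb1 to Cacnb4 from 4.2 ± 0.337 to 2 ± 0.216 (SD, n = 3). The ratio of Cacnb1 to Cacnb2 went from 4.2 ± 0.25 to 2.57 ± 0.434, and that of Cacnb1 to Cacnb3 from 0.666 ± 0.00985 to 0.808 ± 0.0248. For these 5 pairs the groups did not overlap, and the exact 2-sided permutation test gave p = 0.1, the smallest it can give with 3 libraries against 3 (0.12 after Benjamini-Hochberg adjustment over the 6 pairs). For the pairs that hold Cacnb3 this outcome was fixed in advance. Its N40K scores all lay below its control scores, and those of the other beta subunit genes all lay above theirs. All 6 pairs are built from the same 4 genes, so they are not separate tests. The share of all gene pairs without overlap was not computed, so 5 of 6 pairs has no background to be set against. For single genes, N40K scores lay above the control scores without overlap in 33.6% and below in 8.67% of all genes. For Cacnb2 over Cacnb4 the ratios were 0.957, 1 and 1.05 in control and 0.681, 0.702 and 1 in N40K libraries. These overlapped (exact permutation p = 0.3), so the larger ratio of Cacnb4 was not separated from that of Cacnb2 by the spread between libraries.

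The direction of the small changes depended on how libraries were scaled. Median centring, which sets every library to the same median log2 score, took away a shift of 0.13 (log2) between the groups, more than the median change of all genes, 0.06. Deviation centring, which instead sets the median deviation of genes from their own mean to 0, took away 0.07. Of the 7 members 2 rose and 0 fell with scores as deposited, beside 21.5% and 4.11% of all genes. Under median centring 1 rose and 3 fell, beside 9.75% and 18.4% of all genes. After quantile normalization 2 rose and 1 fell, beside 12.9% and 12%, and under deviation centring 2 rose and 2 fell, beside 14.2% and 9.67%. Cacnb4 passed as a rise in all of these. Cacnb3, which had not passed with scores as deposited, passed as a fall in the 3 scaled fits, with log2 changes of -0.23, -0.23 and -0.16 (limma adjusted p = 0.0205, 0.02 and 0.0441). Cacna2d3 passed as a fall under median centring (-0.12, limma adjusted p = 0.0216) and deviation centring (-0.06, 0.0399), and Cacna2d1 under median centring (-0.11, 0.0309). The scores of the last 2 genes lie far below the pseudocount of 0.01, so their change with the pseudocount (0.01 and 0.02) is smaller than the shift subtracted. Without a pseudocount and with deviation centring, Cacna2d1 was at 0.55 (limma adjusted p = 0.0847).

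**Figure D2:**
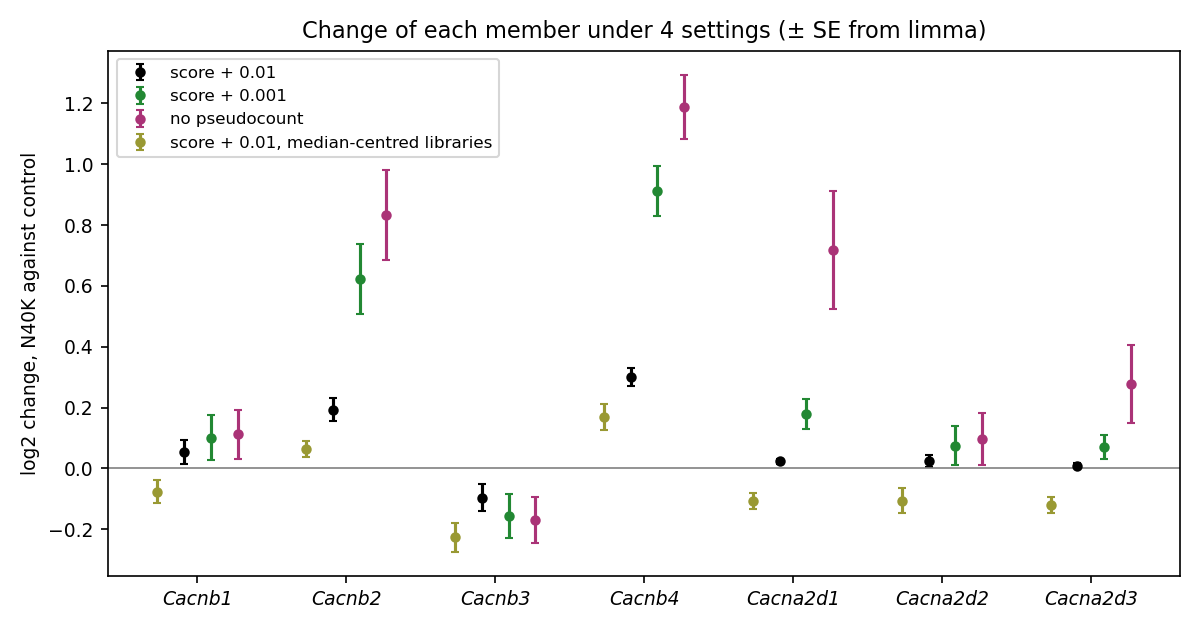
Log2 change of each auxiliary subunit gene, N40K against control, with its SE from limma (vertical axis), at pseudocounts of 0.01 and 0.001, without a pseudocount, and under median centring of the libraries. Cacnb4 stays above 0 and Cacnb3 below 0 in all 4, while Cacnb1 and the alpha2delta subunit genes lie on different sides of 0.

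The members differ widely in gene size. Cacnb3 (chromosome 15) spans 13.7 kb and Cacnb1 (chromosome 11) 21.5 kb by the annotation. Cacna2d2 (chromosome 9) spans 129.7 kb, Cacnb4 and Cacnb2 (both chromosome 2) 248.5 and 384.8 kb, Cacna2d1 (chromosome 5) 439.8 kb and Cacna2d3 (chromosome 14) 816.9 kb. The last 5 belong to the longest 25% of the genes in the table with a known span (61.9 kb or more), where 41.7% of all genes rose. Of these 5 members 2 rose, or 40%, and neither of the 2 short members did. Across the 7 members, the Spearman correlation of gene span with the ratio of mean scores was 0.61, and across 14911 genes with a known span it was 0.39; both describe genes of the same 6 libraries, which are not independent replicates. The longest member, Cacna2d3, had a ratio of 1.22, for which rounding alone allows 0.905 to 1.67. The shorter Cacnb4 and Cacnb2 lay above this range, at 2.21 or more and 1.74 or more after rounding. Within the family the ratio thus did not follow span in every case. For Cacna2d1 rounding allows 1.21 to 2.23, so its order with Cacna2d3 is not settled. The part of span in these ratios was not tested. All members except Cacnb3 overlap other annotated genes, as do 8829 of the 14911 genes matched to the annotation. The overlapping genes number 15 in Cacnb2, 7 in Cacna2d3, 3 each in Cacnb4 and Cacna2d1, 2 in Cacna2d2 and 1 in Cacnb1. Many of them are antisense transcripts or processed pseudogenes, and those in Cacna2d3 include the protein-coding gene Lrtm1 and an rRNA gene. In Cacnb4, Cacna2d2 and Cacnb1 all overlapping genes lie on the opposite strand. In Cacnb2 8 of the 15 do, in Cacna2d3 6 of the 7 and in Cacna2d1 2 of the 3. Reads over the remaining overlaps, on the same strand, could belong to either gene even if strand was used. If the authors' counting ignored strand, this holds for all of them. The part of the overlapping genes in the scores was not tested.

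**Figure D3:**
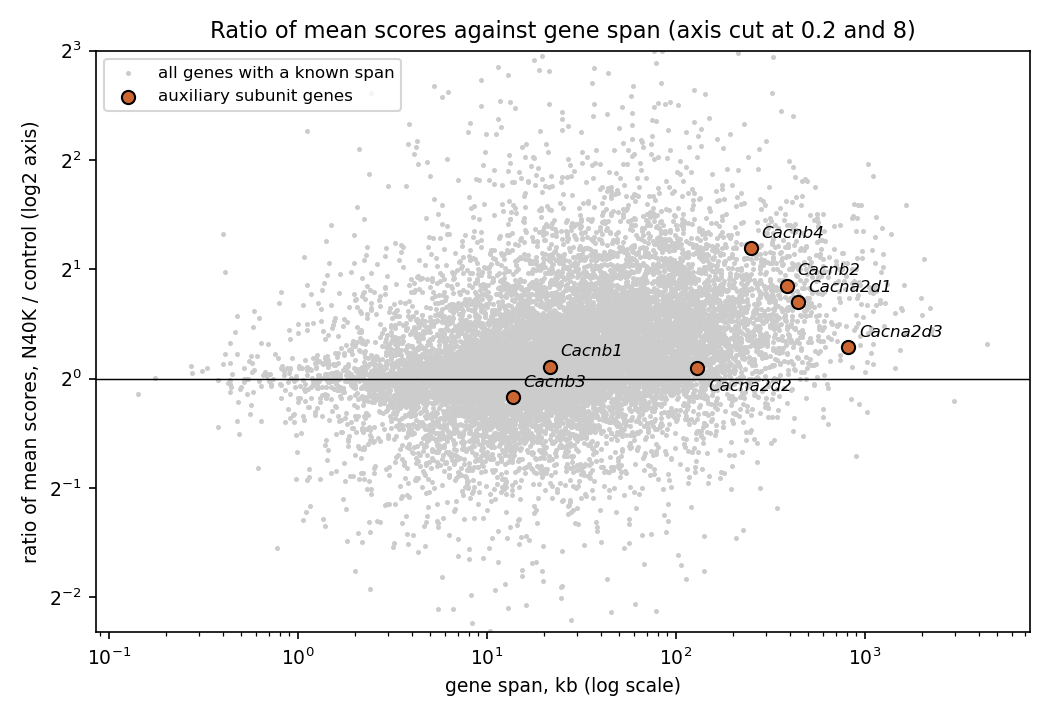
Ratio of mean scores, N40K over control (vertical axis, log2 scale, shown from 0.2 to 8), against gene span in kb (horizontal axis, log scale). Grey points are the genes with a known span and orange points the 7 auxiliary subunit genes; Cacnb3 and Cacnb1 sit at the short end near a ratio of 1 and Cacnb4 (2.29) lies highest among the 5 long members.

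Other genes of the channel complex were described from a list of 26, of which 21 had a score. Of these, 8 rose, 1 fell and 12 did not pass, with a median ratio of 1.25, beside 21.5% rises, 4.11% falls and a median ratio of 1.11 over all genes. Under median centring 2 rose and 4 fell (9.75% and 18.4% of all genes), after quantile normalization 7 and 4 (12.9% and 12%), and under deviation centring 7 and 3 (14.2% and 9.67%). The rises numbered 5, 4 and 4 without control 1, 2 and 3, where 12.9%, 10.3% and 10.4% of all genes rose. The pore subunit genes held 6 of the rises. Cacna1e, the R-type pore, went from 0.00163 ± 0.0000577 to 0.00317 ± 0.000416 (SD, n = 3), a ratio of 1.94 (limma adjusted p = 0.00687). Ratios were 1.74 for Cacna1c and 1.5 for Cacna1d, both L-type pores, 1.70 for Cacna1a, the P/Q-type pore, 1.70 for Cacna1b, the N-type pore, and 1.32 for Cacna1i, a T-type pore. Limma adjusted p-values of these 5 lay between 0.00983 for Cacna1d and 0.0235 for Cacna1i. With 1 library left out, Cacna1b no longer passed without control 2 or 3 (limma adjusted p up to 0.0537), Cacna1c without any one control (up to 0.0598), and Cacna1i without any one control or N40K 3 (up to 0.0705). Cacna1i also did not pass after quantile normalization (limma adjusted p = 0.625), under deviation centring (0.76) or without the eBayes trend (0.108). With the replicate number as a block, Cacna1i (0.0562) and Cacna1c (0.0521) did not pass.

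Ratios of the pore subunit genes that did not pass were 0.957 for Cacna1g and 0.966 for Cacna1h, the other T-type pores, 0.982 for the retinal Cacna1f and 1.70 for the muscle gene Cacna1s, whose libraries were widely spread. Among the longest 25% of genes, 6 of 8 pore subunit genes rose, beside 2 of 5 auxiliary subunit genes and 41.7% of all genes; the difference between these families was not tested. Under median centring none of the 6 pore subunit genes passed (limma adjusted p from 0.0513 for Cacna1a to 0.375 for Cacna1c), and Cacna1i turned to a log2 change of -0.06.

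**Figure D4:**
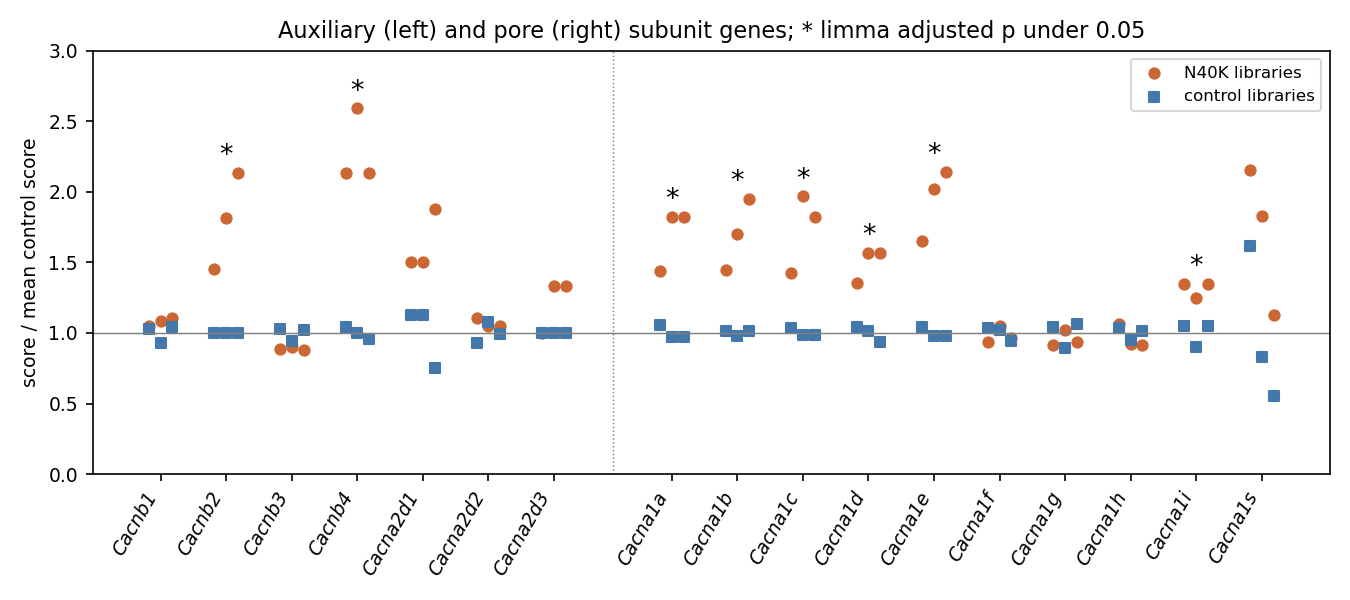
Score of each library divided by the mean control score of its gene (vertical axis, from 0), for the 7 auxiliary (left) and 10 pore (right) subunit genes; squares are control libraries, circles are N40K libraries, and a star marks a limma adjusted p under 0.05. Cacnb4 and Cacnb2 carry stars on the left, and Cacna1a, Cacna1b, Cacna1c, Cacna1d, Cacna1e and Cacna1i on the right.

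Among further auxiliary subunits, Cacng6, a gamma subunit gene, rose from 0.0146, 0.0171 and 0.0369 to 0.157, 0.123 and 0.216, a ratio of 7.23 (limma adjusted p = 0.00532). It spans 11.5 kb, and over all genes of 10.9 to 25.5 kb 13.5% rose. Of the 10 list genes outside the longest 25% by span, 1 rose, which was Cacng6. The part of span in its ratio was not tested. The alpha2delta-like gene Cachd1 had a ratio of 1.25 (limma adjusted p = 0.0865), Cacng7 0.926, and Cacna2d4, the retinal alpha2delta-4 gene, 0.992. Cacna2d4 scored 1.23 ± 0.0724 in control and 1.22 ± 0.329 in N40K libraries (SD, n = 3). Its N40K libraries ranged from 0.909 to 1.57.

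Of the 4 scored partners of the beta and alpha2delta subunits on the list, 0 rose and 1 fell by limma. Over all genes 21.5% rose and 4.11% fell. At an unadjusted p under 0.05 by limma, 0 partners were higher and 2 lower, beside 31.2% and 7.32% of all genes. Rem2, an RGK GTPase that binds beta subunits and lowers channel activity, was the fall on the list: its score was 0.0242, 0.0168 and 0.0147 in control and 0.008, 0.0034 and 0.0071 in N40K libraries. Its ratio was 0.332, a log2 change of -0.82 ± 0.16 (limma adjusted p = 0.0185), and the call ended without control 2 (0.0551). Gem, the other RGK gene with a score, had a ratio of 0.931. Stac, an adaptor of L-type channels, rose to a ratio of 2.44 (limma adjusted p = 0.0333). That call ended without control 1, control 2, control 3 or N40K 2 (limma adjusted p up to 0.103). Stac2 and Stac3 had ratios of 1.08 and 1.04. Of the thrombospondins, ligands of alpha2delta-1, Thbs3 had a ratio of 0.797 and Thbs2 of 1.27, and neither passed (limma adjusted p = 0.0692 and 0.142).

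The genes whose scores followed Cacnb4 most closely over the 6 libraries were Zmpste24, a protease that processes prelamin A (Pearson r = 0.999), Nsmaf, an adaptor of the TNF receptor pathway (0.999), and Ifrd1, a transcriptional co-regulator (0.999). Their ratios were 2.15, 1.61 and 1.54. These values describe 6 libraries in 2 groups: 2257 of 14305 genes ranked had an r above 0.9 with Cacnb4, so a close match sets none of them apart.

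Library medians over all genes were 0.0127 to 0.0136 in control and 0.0146 to 0.0163 in N40K neurons, and 38% to 44.5% of scores in a library lay below the pseudocount. Of the neuronal markers all 7 had a score, Map2 under its older symbol Mtap2. So did 5 of 5 astrocyte, 4 of 5 microglia, 3 of 5 oligodendrocyte and 3 of 4 endothelial markers; a score shows that a gene was measured, not how abundant it was. Of the 4 scored microglial markers Csf1r and Itgam rose, from mean scores of 0.00663 to 0.0183 and 0.0114 to 0.0308, and the others did not pass, with Aif1 at 0.0989 and 0.109 and P2ry12 at 0.153 and 0.127 in control and N40K libraries. The neuronal genes Syn1 and Camk2a rose, from 0.00657 to 0.00807 and 0.00313 to 0.00473, and the other 5 neuronal markers did not pass. The oligodendrocyte gene Mog fell from 0.118 to 0.0859, and no astrocyte or endothelial marker passed by limma. By the same rule 21.5% of all genes rose and 4.11% fell. The part of other cell types in the members' scores was not tested.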

How the data were processed

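Poly(A) RNA of 6 libraries was sequenced as stranded paired reads, per the labels' protocols. Per the submitters' processing notes, the tools named were STAR, BWA, CASAVA and bedtools 2.16.1, on the build mm9; their roles, the annotation, filters and strand setting: not given in the sources used here. The authors deposited 1 table of a linear ratio, the Sd score, for 15705 genes. No depth is given, so no counting interval is printed. Columns were assigned by name, with 0 columns unused. No pair of columns shared more than 5.82% of its scores.

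The fit used limma 3.58.1 (R 4.3.3) on log2(score + 0.01) (eBayes with trend, 2-sided, Benjamini-Hochberg over all genes, threshold 0.05). The filter, a score above 0 in at least 3 libraries, removed 0 genes. Folds on this scale understate changes of low scores, so ratios of mean scores are given. The fit was tested on simulated data. Members, gene lists and tests were chosen with earlier results of these data known. Named genes are all members, list genes that passed or came closest in their subgroup, and the 3 genes most correlated with the member of smallest p; marker genes are named for the cell type check. Alternatives varied the pseudocount, filter, scaling, eBayes trend, replicate block and overlapping genes, or left out a library. Spans and exon ends came from GENCODE M21 (GRCm38), matched by gene identifier for 14911 genes (94.9%) and all 7 members; the build differs from mm9, so no coordinates are printed.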

Additional observations from a re-analysis of the deposited data

How the results depend on the processing

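Cacnb4 passed as a rise in all 17 alternatives that kept it, and Cacng6 in all 19. Median centring of the libraries gave 1 rise and 3 falls among the 7 members, 2 and 4 on the calcium channel list, and 1531 and 2883 over all genes. The member falls included Cacna2d1 and Cacna2d3, whose log2 changes at the pseudocount of 0.01 (0.02 and 0.01) were smaller than the shift subtracted (0.13). Without a pseudocount these 2 genes were at 0.72 and 0.28. Deviation centring gave 2 falls among the members, 3 on the list, and 2235 rises and 1518 falls over all genes; quantile normalization gave 1 and 4 falls, and 2022 rises and 1883 falls over all genes. Without a pseudocount and with deviation centring, added after seeing the data, 1 member, 2 list genes and 1410 genes fell. The stricter filter kept 2 members and gave 0 rises among them, 2 on the list and 1968 over all genes. Without overlapping genes 1 member was left, with 0 rises; 3 list genes rose, and 963 genes rose and 219 fell. With fewer genes kept, these counts do not bear on the members removed.

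With 1 library left out, 1 to 2 members rose and 0 fell, 4 to 9 list genes rose and 0 to 1 fell, and over all genes 1613 to 3729 rose and 303 to 486 fell. With the replicate number as a block, 1 member rose (Cacnb2 had a limma adjusted p of 0.0506), and over all genes 1770 rose and 328 fell. Libraries with the same number share only a number: their deviations correlated at -0.07, 0.04 and -0.02, and not every library correlated best with its own number.

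Some log2 changes turned in sign, most of them small, and the cause was not tested beyond the subtracted shift. Under median centring this gave Cacnb1 -0.076, Cacna2d1 -0.107, Cacna2d2 -0.105, Cacna2d3 -0.121, Cacna1i -0.056, Cachd1 -0.062, Stac2 -0.053 and Stac3 -0.126. Under quantile normalization it gave Cacnb1 -0.066, Cacna2d2 -0.057, Cacna2d3 -0.0093, Cachd1 -0.0030, Cacna2d4 0.033, Stac2 -0.066 and Stac3 -0.083. Under deviation centring it gave Cacnb1 -0.011, Cacna2d1 -0.042, Cacna2d2 -0.0405, Cacna2d3 -0.056 and Stac3 -0.061, and without a pseudocount as well Cacnb1 -0.057, Cacna2d2 -0.072, Stac2 -0.0503 and Stac3 -0.168. With 1 library left out, values ranged from -0.24 to 0.149 for Cacna2d4, from -0.166 to 0.081 for Gem, from -0.263 to 0.221 for Stac3 and from -0.051 to 0.000199 for Cacng7. The pair ratios of the beta subunit genes kept their sign at the 3 pseudocounts and with each library left out, the alternatives run on them, and were smaller with a pseudocount. Depth is unknown, and the last decimal limits Cacna2d1 and Cacna2d3.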
